A study of Mus musculus with 4 samples.

Results

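The 35 genes described here are those of glycolysis and of the response to low oxygen, picked by symbol from the 31053 genes of the count matrices. Of these, 18 encode glucose transporters, hexokinases and other enzymes that carry out or control the path from glucose to pyruvate. A further 3 act on pyruvate and lactate, 2 are mitophagy receptors and 3 (Hif1a, Egln1 and Egln3) belong to oxygen sensing. The others are 3 genes for secreted factors and 6 other genes induced by low oxygen. They were measured in leukocytes of mouse pancreatic tumours by single-cell RNA sequencing. C57BL/6 mice carried orthotopic tumours of the B6KPC3 line, that is, tumour cells of a single line placed in the pancreas, and treatment began when the tumours were 7 days old. The AT38 group received 30 mg/kg of AT38 per day, a compound known here by its code name only, by intraperitoneal injection for 7 days in 1% carboxymethyl cellulose. The vehicle group received that solution alone in the same way. Each group held 2 libraries of 4 pooled mice each, and every p-value below measures the spread between these pools rather than between animals. The age and sex of the mice were not stated, and tumour cells were largely removed by sorting for CD45, the surface protein shared by leukocytes.

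Glycolysis cuts glucose into pyruvate in the cytosol and yields ATP without oxygen. Lactate dehydrogenase then turns pyruvate into lactate, and the monocarboxylate transporter MCT4 (Slc16a3) carries it out of the cell. When oxygen is plentiful, the prolyl hydroxylases Egln1 and Egln3 mark HIF-1 alpha for destruction, and when it is scarce the protein pairs with ARNT and binds a short core motif near glycolysis genes, Vegfa, Bnip3 and many others. Pancreatic tumours are known for poor perfusion, and activated myeloid cells are known to rely on glycolysis.

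The promoters of 5 members are shown because their genes changed with AT38 in neutrophils or in mononuclear phagocytes, and because each holds that core motif more than once. They are a choice: Pgam1, Hilpda and Vegfa, which also changed, each have a listed promoter with 2 or 3 matches before the start and are not shown. The lines give the 250 bases before a RefSeq start in GRCm38.p6, the patched mouse assembly behind mm10, each read 5′ to 3′ on the strand of the gene. Capitals mark the core motif searched, ACGTG in its common form. Its other form, GCGTG, was searched as well, and each was sought on both strands. A palindrome of the common form, as in the Pfkfb3 and Bnip3 stretches, counts as 2 overlapping matches.
Slc16a3, chr11:120948817-120949066, plus strand, 2 matches: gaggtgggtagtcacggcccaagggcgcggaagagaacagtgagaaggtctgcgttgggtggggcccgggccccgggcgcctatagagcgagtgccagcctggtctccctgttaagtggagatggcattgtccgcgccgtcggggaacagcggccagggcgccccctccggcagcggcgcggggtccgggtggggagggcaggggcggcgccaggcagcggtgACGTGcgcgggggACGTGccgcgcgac
Pfkfb3, second listed promoter, chr2:11502091-11502340, minus strand, 3 matches: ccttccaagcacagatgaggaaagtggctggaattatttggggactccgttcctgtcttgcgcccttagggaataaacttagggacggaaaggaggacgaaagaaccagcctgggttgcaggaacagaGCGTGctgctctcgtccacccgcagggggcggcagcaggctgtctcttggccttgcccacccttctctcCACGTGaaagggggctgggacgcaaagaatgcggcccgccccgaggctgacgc
Bnip3, chr7:138909507-138909756, minus strand, 5 matches: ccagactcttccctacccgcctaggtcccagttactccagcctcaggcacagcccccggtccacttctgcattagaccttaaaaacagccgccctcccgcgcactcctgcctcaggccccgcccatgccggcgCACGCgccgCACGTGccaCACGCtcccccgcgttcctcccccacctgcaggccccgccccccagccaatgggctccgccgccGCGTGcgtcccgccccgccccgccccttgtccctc
Hk2, chr6:82774455-82774704, minus strand, 2 matches: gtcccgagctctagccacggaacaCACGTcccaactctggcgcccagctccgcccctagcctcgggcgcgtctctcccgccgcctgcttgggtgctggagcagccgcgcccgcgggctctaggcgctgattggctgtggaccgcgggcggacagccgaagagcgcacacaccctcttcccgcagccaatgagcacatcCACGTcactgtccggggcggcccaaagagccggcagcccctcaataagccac
Pgk1, chrX:106186850-106187099, plus strand, 2 matches: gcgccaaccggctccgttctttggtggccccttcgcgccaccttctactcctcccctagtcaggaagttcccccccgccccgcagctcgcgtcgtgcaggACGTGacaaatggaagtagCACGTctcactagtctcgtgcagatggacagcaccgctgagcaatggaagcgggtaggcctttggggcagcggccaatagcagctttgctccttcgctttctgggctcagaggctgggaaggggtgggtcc
The stretches before Hk2 and Pgk1 overlapped no exon of GENCODE M21, while 14 bases of the Slc16a3, 11 of the Pfkfb3 and 13 of the Bnip3 stretch lay in an exon of another transcript of the same gene. The RefSeq table held 42 promoters of 30 of the 35 members, each from 250 bases before to 50 after a start. At least 1 match was found in 28 of the 30 members (93.3%), against 12628 of all 27025 genes in the table (46.7%). Gpi1 and Tpi1 had none of these letters in that window. The median GC content was 62.8% in the member promoters and 52.7% in all 32851, and its part in the difference was not tested. A match is a run of letters, and whether HIF bound there was not measured.

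Of 18001 barcodes, 14172 were kept as cells, 2903 to 4683 per library with 21473569 to 26920928 UMIs (unique molecular identifiers, each counting 1 captured molecule). Clusters were named from marker genes after the 35 members had been withheld from the clustering. Classes held 4512 neutrophils, 1602 mononuclear phagocytes (monocytes and macrophages), 1569 dendritic cells, 1224 B, 2804 T and 532 NK cells. Smaller classes were 109 mast cells and basophils, 66 group 2 innate lymphoid cells and 258 cells of a non-leukocyte cluster. That last name was given where epithelial or fibroblast markers scored highest. Between 9.18% and 12.7% of the cells of a library stayed unnamed. The neutrophil class held its defining markers, with S100a8 between 27086 and 35591 CPM (UMIs scaled to a total of 1000000 per class and library). The 10 neutrophil markers summed to 68707 to 82283 CPM in neutrophils and to 92.3 to 177 CPM in B cells.

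Neutrophils led the largest number of members. Their mean CPM over the 4 libraries was the highest of the 9 classes for 14 of the 35 genes, followed by the non-leukocyte cluster with 7, mast cells and basophils with 4, and mononuclear phagocytes, dendritic cells and innate lymphoid cells with 3 each. T cells led for 1 gene. The share of all genes that were highest in each class was not counted. These levels are descriptions without a test, because the classes were themselves made from expression. A class is called separate below only where its lowest library lay above the highest library of the next class. By that rule neutrophils were separate for 6 of their 14 genes. Levels are compared between cells, not between genes.

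**Figure D1:**
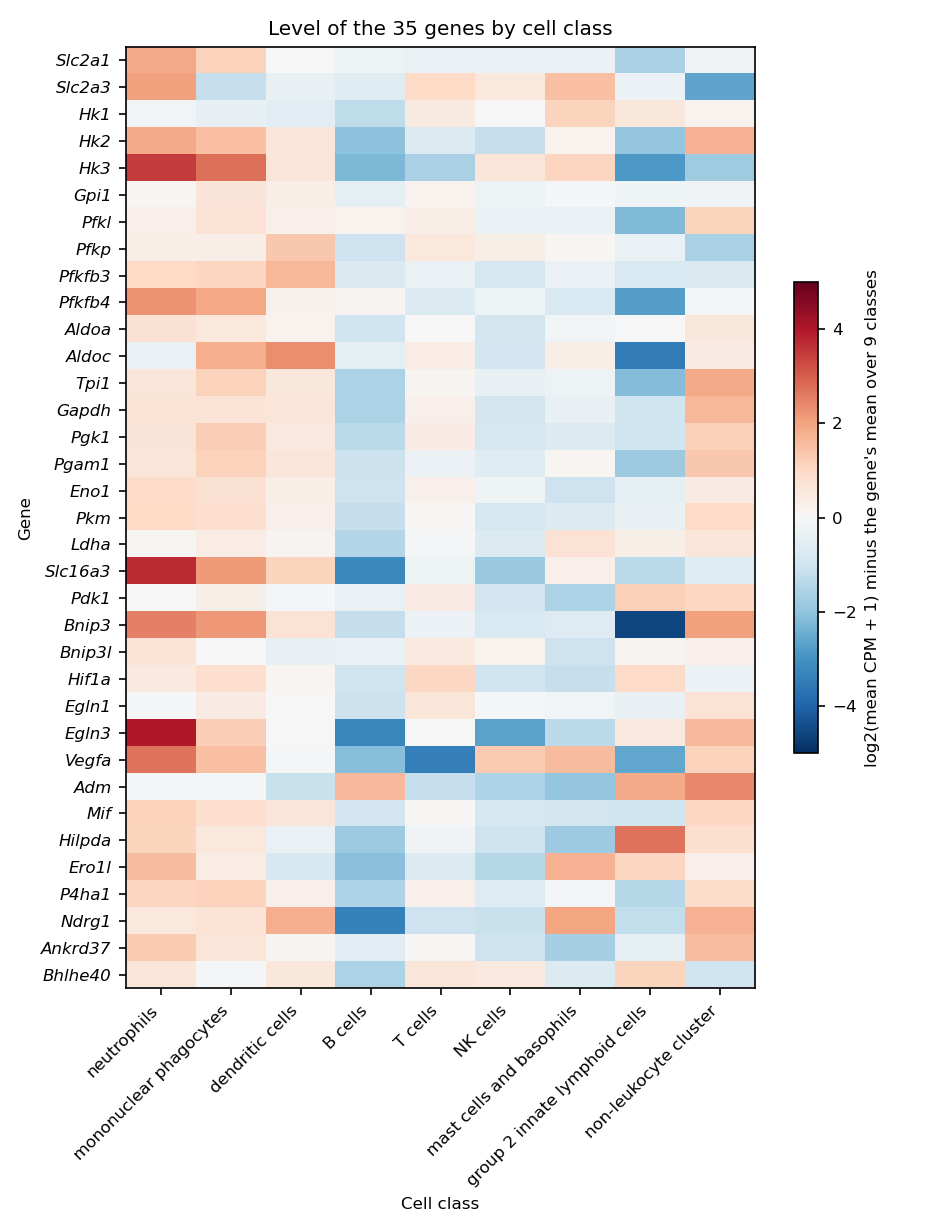
Mean level of each of the 35 members in 9 cell classes, as log2(CPM + 1) over 4 libraries minus the mean of that gene over the classes. Neutrophils stand out for Slc16a3, Egln3 and Vegfa, innate lymphoid cells for Hilpda, and B cells are low for most members.

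Among the transporters and hexokinases, Slc2a1 (GLUT1, the widely expressed glucose transporter) was highest in neutrophils at 246 ± 12.7 CPM (SD, n = 4 libraries), separate from mononuclear phagocytes at 148 ± 21.7. Slc2a3 (GLUT3, a high-affinity glucose transporter) led in neutrophils too, at 122 ± 25.4 CPM, but overlapped mast cells and basophils at 83.2 ± 35. The hexokinases, which trap glucose by phosphorylation, split by class. Hk1 led in mast cells and basophils at 107 ± 19.6 CPM, Hk2 in neutrophils at 350 ± 62.1 and the non-leukocyte cluster at 313 ± 50.1, and Hk3 in neutrophils at 82.5 ± 16.1 against 49.0 ± 9.08 in mononuclear phagocytes. Hk1 and Hk3 were separate from the next class and Hk2 was not. Hk3 was at 0.553 CPM in B cells and 1.37 in T cells.

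Upper glycolysis divided in the same way. Gpi1 (glucose-6-phosphate isomerase) was highest in mononuclear phagocytes at 431 ± 74.5 CPM. Pfkp, the platelet form of phosphofructokinase, was highest in dendritic cells at 399 ± 36.6 CPM, and within them in the type 1 clusters at 686 ± 50.8. Pfkfb3, which makes the activator of phosphofructokinase, reached 199 ± 41.0 CPM in mature dendritic cells and 60.1 ± 17.2 in neutrophils. Pfkfb4, an enzyme of the same family, led in neutrophils at 31.6 ± 2.20 CPM. Of the aldolases, Aldoa led in neutrophils at 734 ± 62.6 CPM and Aldoc in dendritic cells at 55.1 ± 11.1, neither separate. Pfkl, Tpi1, Gapdh and Pgam1, all enzymes of the shared path, were highest in the non-leukocyte cluster, with Gapdh at 2526 ± 461 CPM there and 1270 ± 158 in neutrophils.

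Among enzymes of lower glycolysis and of lactate, Pgk1 reached 650 ± 138 CPM in mononuclear phagocytes, 633 ± 167 in the non-leukocyte cluster and 431 ± 36.1 in neutrophils, and the leading classes overlapped. Eno1 and Pkm led in neutrophils at 395 ± 52.1 and 832 ± 31.4 CPM without being separate. Ldha was highest in mast cells and basophils at 798 ± 140 CPM. Slc16a3, the lactate exporter, showed a steep order: 514 ± 77.7 CPM in neutrophils, 167 ± 36.2 in mononuclear phagocytes, 82.7 ± 9.76 in dendritic cells, 31.5 ± 5.40 in T cells and 3.06 ± 1.55 in B cells. Its neutrophil level was separate from all the others.

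The mitophagy receptors Bnip3 and Bnip3l were highest in neutrophils at 137 ± 22.8 and 228 ± 34.1 CPM, overlapping the next classes. The oxygen sensing genes did not share a class. Hif1a was highest in T cells at 630 ± 83.5 CPM, overlapping innate lymphoid cells at 591 ± 70.3 and mononuclear phagocytes at 549 ± 70.8. Within T cells, regulatory T cells had 1070 ± 46.1 CPM of Hif1a, the other CD4 T cells 896 ± 107 and CD8 T cells 401 ± 52.8, and these ranges did not overlap. Egln3, which is itself induced by HIF, lay at 307 ± 41.4 CPM in neutrophils, 57.2 ± 19.9 in the non-leukocyte cluster, 44.1 ± 15.4 in mononuclear phagocytes and 0.973 ± 0.735 in B cells. Egln1 was highest in the non-leukocyte cluster at 122 ± 27.0 CPM and next in T cells at 109 ± 8.49.

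Vegfa, the growth factor of blood vessels, had its highest level in neutrophils at 908 ± 200 CPM, separate from mast cells and basophils at 417 ± 85.0 and mononuclear phagocytes at 389 ± 46.0. NK cells held 338 ± 34.3 CPM of Vegfa and T cells 12 ± 2.97, with no overlap between these lymphoid classes. Mif, a cytokine released by many cells, led in neutrophils at 928 ± 98.3 CPM without being separate, and Adm (the vasodilator adrenomedullin) was scarce everywhere, with 31 UMIs in all neutrophils of the 4 libraries. Hilpda, which blocks the breakdown of stored fat, was highest in innate lymphoid cells, from 683 to 1458 CPM over the libraries, against 337 ± 75.9 in neutrophils. Ero1l reached 406 ± 119 CPM in mast cells and basophils and 361 ± 61.2 in neutrophils. The collagen hydroxylase subunit P4ha1 was at 110 ± 10.1 CPM in mononuclear phagocytes and 104 ± 8.42 in neutrophils, and Ankrd37, a HIF target of unclear function, at 37.2 ± 13.7 in the non-leukocyte cluster and 31.7 ± 5.01 in neutrophils. The ranges of all 3 overlapped. Ndrg1, a stress-induced gene, averaged 193 CPM in mast cells and basophils with a wide range, from 74.3 to 452, and 272 ± 28.4 in mature dendritic cells. Pdk1, which inhibits pyruvate dehydrogenase, was highest in group 2 innate lymphoid cells at 51.2 ± 35.2 CPM (17 UMIs). Its range there overlapped that of the non-leukocyte cluster. Bhlhe40, a transcription repressor, led in innate lymphoid cells too at 1849 ± 502 CPM. Innate lymphoid cells numbered 15 to 20 per library, so their ranges are wide.

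In neutrophils, AT38 was compared with vehicle over the summed UMIs of each library. The lactate exporter Slc16a3, the glycolysis activator Pfkfb3, the oxidative folding enzyme Ero1l and the mitophagy receptors Bnip3 and Bnip3l fell, while Vegfa and Hk2 rose. That was 7 of 34 tested members, 5 lower and 2 higher, where 4.88% of all 8403 genes passed, 3.42% lower and 1.46% higher. The median log2 fold change (AT38 minus vehicle) was -0.16 over the members and 0.01 over all genes. Of the 34 members 25 lay below 0, against 49.2% of all genes. The lowest member change was -0.81 and the highest 0.37. Adm did not pass the filter on low counts.

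Slc16a3 stood at 584 and 579 CPM with vehicle and at 444 and 450 with AT38. Pfkfb3 stood at 77.4 and 71.2 CPM with vehicle and at 40.2 and 51.7 with AT38. In both genes each AT38 library was below each vehicle library. The log2 fold change was -0.50 ± 0.09 (SE) for Slc16a3 (adjusted p = 0.00106) and -0.81 ± 0.15 for Pfkfb3 (adjusted p = 0.00206), by edgeR's quasi-likelihood test with Benjamini-Hochberg adjustment, as for all adjusted p-values in the text. Ero1l, which passes electrons from newly folded proteins to oxygen, stood at 446 and 366 CPM with vehicle and at 317 and 315 with AT38, a change of -0.48 ± 0.10 (adjusted p = 0.00613 by edgeR).

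The mitophagy receptors, which tag mitochondria for removal, were lower together. Bnip3 stood at 168 and 139 CPM with vehicle and 116 and 124 with AT38, a log2 change of -0.47 ± 0.12 (adjusted p = 0.0200, edgeR). Bnip3l stood at 264 and 238 CPM with vehicle and 183 and 226 with AT38, a change of -0.41 ± 0.11 (adjusted p = 0.0294, edgeR). The groups did not overlap for either receptor, although vehicle 2 and AT38 2 lay close for Bnip3l. Going the other way, Vegfa stood at 733 and 775 CPM with vehicle and at 1173 and 949 with AT38, a change of 0.37 ± 0.10 (adjusted p = 0.0272, edgeR). Hk2, the inducible hexokinase, stood at 283 and 312 CPM with vehicle and at 400 and 406 with AT38, a change of 0.32 ± 0.09 (adjusted p = 0.0477, edgeR). Every AT38 library was above every vehicle library for both genes.

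**Figure D2:**
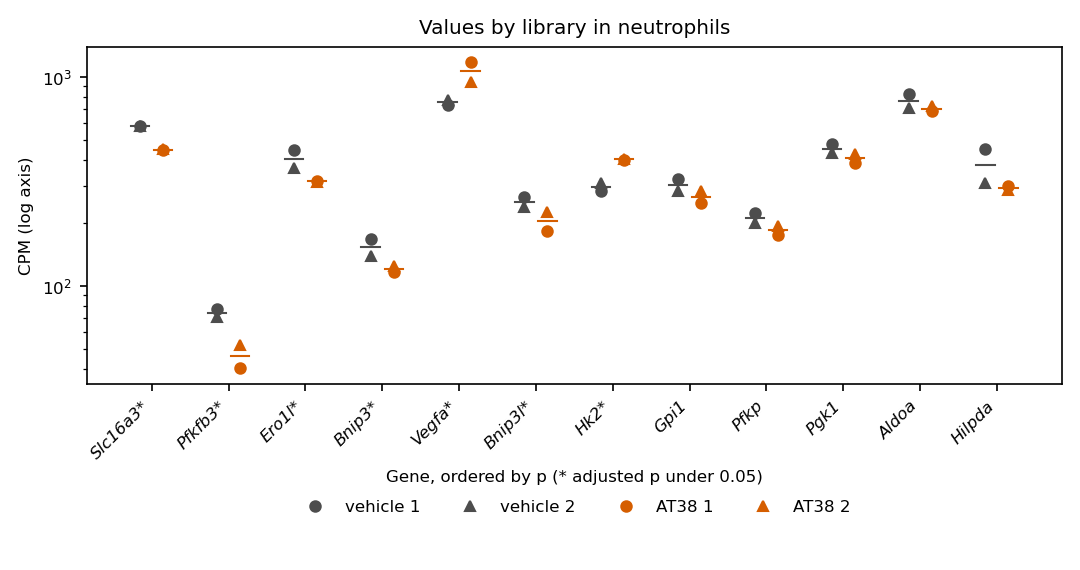
CPM (log axis) in neutrophils of each library for the 12 members with the smallest p, vehicle and AT38 side by side, with circles for library 1, triangles for library 2, a bar for the mean and an asterisk for adjusted p under 0.05. Slc16a3 shows the tightest pairs, 584 and 579 CPM against 444 and 450.

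The other named members of neutrophils did not pass. Gpi1 had a log2 change of -0.31 (adjusted p = 0.0863), Pfkp of -0.31 (0.0899), Pgk1 of -0.27 (0.0985), Aldoa of -0.24 (0.142) and Hilpda of -0.49 (0.176), all by edgeR. Hilpda stood at 450 and 311 CPM with vehicle and at 299 and 288 with AT38, so vehicle 1 was apart from the other 3 libraries, and 8.49% of its UMIs came from 5 cells. Slc2a1 (-0.17, adjusted p = 0.394), Ldha (-0.13, 0.666) and Hif1a (-0.10, 0.624) overlapped between the groups. The CPM of 15 members did not overlap between the groups, 9 of them lower with AT38, where 51% of all tested genes did not overlap and 14.2% were lower. Most non-overlapping genes were thus higher with AT38, as Vegfa and Hk2 were, in CPM that is not scaled by TMM.

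How many of these calls were made depended on vehicle 1 and on the scaling. Without vehicle 1, 1 member passed (Slc16a3, adjusted p = 0.0314), and without AT38 1, Vegfa had a change of 0.22 (adjusted p = 0.348). Scaling to library size in place of TMM, a scaling robust to a few abundant genes, moved the median change of all genes to 0.13, and 3 members were then lower and 2 higher. The share of lower genes among all calls was 70% with TMM and 31.7% with library size. Over 13 alternative analyses Slc16a3 passed in 13, Pfkfb3 and Ero1l in 12, Vegfa in 10, Bnip3 in 8, Bnip3l in 7 and Hk2 in 4. Fits inside single neutrophil clusters, described below, were not among these 13, and Slc16a3 passed there in cluster 8 only. Summed markers moved as well: neutrophil markers were at 77317 and 82283 CPM with vehicle and 68707 and 68722 with AT38, with 6 of 10 lower in both AT38 libraries. Acinar markers, of digestive enzyme cells, were at 47.5 and 49.8 CPM with vehicle and at 135 and 146 with AT38, with 4 of 9 higher in both AT38 libraries and none at 0. Epithelial markers were at 31.0 and 31.6 CPM against 40.6 and 34.8 (2 of 8 higher and 2 lower in both AT38 libraries, Cldn4 at 0), and fibroblast markers at 7.14 and 14.6 against 4.51 and 6.24 (1 of 7 lower, Pdgfrb at 0). The summed macrophage, B cell, T cell and red blood cell markers overlapped. The part of any of these in the results was not tested.

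Neutrophils fell into 6 clusters, made without the members, and these differed sharply in member levels. Cluster 7, led by S100a8, Hcar2 and Cxcl3, had the highest mean of 27 of the 35 members, and for 21 of these its lowest library lay above every library of the other clusters. Of all 8403 genes tested in neutrophils, 17.1% had their highest mean in cluster 7. For how many of all genes its lowest library lay above every library of the other clusters was not counted. Cells of cluster 7 made up 11.0% of the neutrophils of vehicle 1. They made up 5.35%, 5.53% and 6.53% of those of vehicle 2, AT38 1 and AT38 2. Thus vehicle 1 held about as many of these cells, 113, as both AT38 libraries together, 53 and 55.

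In cluster 7, Hilpda lay at 2329 and 1998 CPM with vehicle and at 2303 and 1463 with AT38, where the next cluster averaged 358. Ldha averaged 1888 ± 311 CPM against 619 in the next cluster, Ero1l 1790 ± 320 against 515, and Bnip3 677 ± 30.0 against 173. With 12.4% of the neutrophil UMIs of vehicle 1, cluster 7 gave 64.3% of its Hilpda UMIs, 47.1% of its Bnip3 and 37.1% of its Ldha UMIs. In the other libraries it gave 33.0% to 38.4% of the Hilpda UMIs. With cluster 7 left out, 4 members passed (5.52% of all genes did): Pfkfb3 at -0.76, Slc16a3 at -0.53, Ero1l at -0.49 and Vegfa at 0.43. Bnip3 then had adjusted p = 0.0527, Hk2 0.0977 and Bnip3l 0.102 by edgeR, and the change of Hilpda was -0.08.

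The largest clusters, 3 and 8, differed in the members they expressed. Cluster 3, led by S100a8, S100a9 and Acod1, made up 49.95% and 50.8% of vehicle neutrophils and 34.9% and 36.5% of AT38 neutrophils. Cluster 8, with Il1a, Mmp9 and Cxcl2 among its leading genes, made up 28.9% and 34.1% with vehicle and 43.4% and 41.6% with AT38. These shares are descriptions, since the clusters were built on the same libraries. Over the 4 libraries, 13 members were higher in cluster 8 without overlap, 9 were higher in cluster 3 and 13 overlapped. The share of all genes without overlap between these clusters was not counted. Vegfa averaged 1344 ± 165 CPM in cluster 8 and 382 ± 116 in cluster 3, Hk2 414 ± 46.0 and 149 ± 20.9, and Mif 1208 ± 30.1 and 432 ± 30.6. The lactate exporter went the other way, with Slc16a3 at 277 ± 48.9 CPM in cluster 8 and 840 ± 19 in cluster 3, as did the glucose transporter Slc2a3 at 72 ± 22.7 and 154 ± 25.4.

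**Figure D3:**
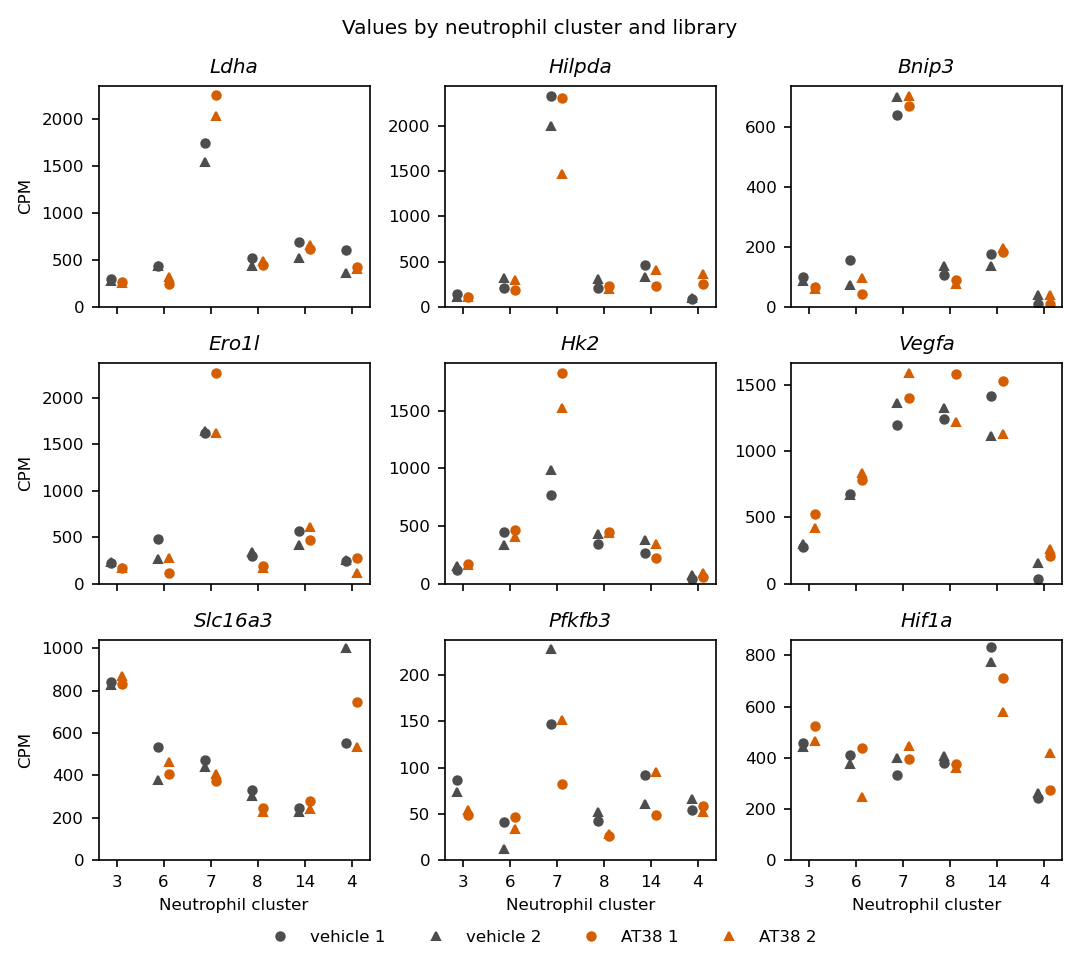
CPM of 9 members in the 6 neutrophil clusters, 1 point per library. Hilpda, Ldha, Ero1l and Bnip3 peak in cluster 7, and Slc16a3 is high in cluster 3 and low in cluster 8.

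The comparison of AT38 with vehicle was also made inside single clusters. In cluster 3, where 1.59% of genes passed, Vegfa was the member that passed, at 276 and 301 CPM with vehicle and 527 and 424 with AT38, a log2 change of 0.71 ± 0.12 (adjusted p = 0.00516, edgeR). Slc16a3 had a change of 0.02 there, with 840 and 824 CPM in the vehicle libraries and 829 and 867 in the AT38 libraries. In cluster 8, where 2.08% passed, 4 members fell: Ero1l by 0.91, Bnip3 by 0.61, Slc16a3 by 0.47 and Pgk1 by 0.40 on the log2 scale. The Slc16a3 libraries of cluster 8 were at 333 and 301 CPM with vehicle and 245 and 228 with AT38. Vegfa had a change of 0.07 in cluster 8. In cluster 7, 0 of 32 members passed by edgeR, where 0.253% of all genes did, and 2 had an unadjusted p under 0.05. Hk2 there stood at 770 and 988 CPM with vehicle and 1825 and 1525 with AT38 (adjusted p = 0.0900, edgeR). Pfkfb3 was at -0.64 in cluster 3, -0.88 in cluster 8 and -0.66 in cluster 7, with adjusted p of 0.183, 0.0589 and 0.545 by edgeR. Whether a change differed between clusters was not tested. With every cluster held at its mean share of the UMIs over the 4 libraries, the log2 ratio of mean CPM moved from -0.38 to -0.10 for Slc16a3, from 0.49 to 0.23 for Vegfa, and from -0.69 to -0.56 for Pfkfb3.

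In mononuclear phagocytes every member past the threshold was lower with AT38. Hilpda, the enzymes Aldoa, Pgk1 and Pgam1, the lactate exporter Slc16a3 and the oxygen sensor Egln3 fell, and no member was called higher. These were 6 of 35 members, where 1.93% of all 10406 genes passed, 0.75% lower and 1.18% higher. The median log2 change was -0.30 over the members and 0.01 over all genes. Of the 35 members 30 lay below 0, against 48.9% of all genes. An unadjusted p under 0.05 by edgeR was found for 22 members and for 1197 of all 10406 genes. The CPM of 26 members was lower in both AT38 libraries than in either vehicle library, where 20.4% of all tested genes were.

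Hilpda stood at 307 and 266 CPM with vehicle and at 176 and 161 with AT38, a log2 change of -0.76 ± 0.11 (adjusted p = 0.00243, edgeR). Egln3 was lower by a like amount, at 63.9 and 48.4 CPM with vehicle and 34.5 and 29.6 with AT38, a change of -0.78 ± 0.17 (adjusted p = 0.0288, edgeR). For both genes the AT38 libraries lay well below the vehicle libraries. Of the pathway enzymes, Aldoa, which splits the 6-carbon sugar, stood at 773 and 686 CPM against 545 and 517, a change of -0.46 ± 0.09 (adjusted p = 0.0207, edgeR). Pgk1, the earlier of the ATP-yielding enzymes of glycolysis, stood at 809 and 717 CPM against 563 and 510, a change of -0.50 ± 0.09 (adjusted p = 0.0128, edgeR). Pgam1, the mutase that follows Pgk1, stood at 524 and 517 CPM against 389 and 363, a change of -0.46 ± 0.09 (adjusted p = 0.0168, edgeR). Slc16a3 stood at 211 and 182 CPM against 143 and 133, a change of -0.51 ± 0.11 (adjusted p = 0.0340, edgeR). The groups did not overlap for any of these 6 genes.

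Neighbouring enzymes had changes of like size without passing. Tpi1 had a log2 change of -0.49 (adjusted p = 0.0575), Eno1 of -0.42 (0.0627), Pkm of -0.32 (0.0967) and Gpi1 of -0.37 (0.117), by edgeR. Hif1a stood at 608 and 613 CPM with vehicle and at 479 and 498 with AT38 (change -0.32, adjusted p = 0.102, edgeR). Ldha was at -0.29 (0.152), Slc2a1 at -0.32 (0.249) and Vegfa at -0.21 (0.466). The highest positive changes were 0.43 for Hk3 (adjusted p = 0.206) and 0.38 for Pfkfb3 (0.153), and Pfkfb3 stood at 56.6 and 54.4 CPM with vehicle and 72.4 and 71.8 with AT38.

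Phagocytes held 3 clusters, and cluster 2 (Arg1, Mmp12, Ccl24, Fn1), of macrophages, had the highest levels of the 6 called genes. Hilpda averaged 317 CPM in cluster 2, 67.9 in cluster 1 (Ccl8 and C1q genes) and 83.9 in the monocyte cluster 15. Cluster 2 made up 56.5% and 51.1% of the class with vehicle and 39.4% and 48.8% with AT38. Within cluster 2, Hilpda stood at 393 and 379 CPM against 251.3 and 247, a change of -0.62 ± 0.11 (adjusted p = 0.00945, edgeR), and it was the 1 member to pass where 2.29% of genes did. The macrophage clusters together gave 4 calls (Pgk1, Eno1, Hilpda, Pgam1, all lower), where 1.88% of genes passed. The monocyte cluster gave 0 calls among 32 members tested by edgeR (0.306% of genes passed), with 8 at an unadjusted p under 0.05. Hilpda had a change of -0.08 in monocytes, where Slc16a3 was at -0.61 (adjusted p = 0.137) and Aldoa at -0.47 (0.179). With the clusters held at their mean shares in the same way, the log2 ratio of mean CPM moved from -0.77 to -0.59 for Hilpda and from -0.51 to -0.39 for Pgk1.

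Without vehicle 1, 0 members passed in phagocytes by edgeR and 12 had an unadjusted p under 0.05, and the change of Hilpda was -0.66 (adjusted p = 0.0602). Without vehicle 2, 3 passed, and without AT38 1 or AT38 2, 14 and 12 did. When a cluster that also held T cell markers was added, 1 member passed (Hilpda, adjusted p = 0.0478 by edgeR), where 0.422% of genes did. Over 15 alternative analyses Hilpda passed in 13, Pgk1 in 11, Pgam1 in 9, Egln3 in 8, and Aldoa and Slc16a3 in 7 each. Macrophage markers summed to 8191 and 9391 CPM with vehicle and to 12685 and 12859 with AT38, and 8 of 10 were higher in both AT38 libraries. Epithelial markers summed to 57.2 and 64.2 CPM with vehicle and 37.1 and 38.5 with AT38 (2 of 8 lower in both AT38 libraries), and B cell markers to 85.2 and 53.2 against 52.0 and 22.2 (5 of 8 lower). Fibroblast markers summed to 2.63 and 4.42 CPM against 5.20 and 5.55 (3 of 7 higher, 2 lower). T cell markers summed to 535 and 461 CPM with vehicle and 566 and 334 with AT38 and so overlapped, as did acinar and neutrophil markers, and red blood cell genes summed to 49.9 CPM in vehicle 1 and at most 1.11 elsewhere. Their part in the results was not tested.

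Whether the AT38 change differed between neutrophils and mononuclear phagocytes was tested as an interaction, with the library as a term because both classes came from the same libraries. It differed for 4 members, where 0.893% of all 10526 genes passed. Pfkfb3 had log2 changes of -0.81 in neutrophils and 0.38 in phagocytes, a difference of -1.19 ± 0.18 (adjusted p = 0.00236, edgeR). Hk3 had changes of -0.36 and 0.43, a difference of -0.76 ± 0.18 (adjusted p = 0.0458, edgeR). Vegfa went the other way, with changes of 0.37 and -0.21 and a difference of 0.60 ± 0.13 (adjusted p = 0.0277, edgeR). Tpi1 had a change of 0.09 in neutrophils and -0.49 in phagocytes, a difference of 0.60 ± 0.14 (adjusted p = 0.0403, edgeR). Slc16a3, at -0.50 and -0.51, was not among them. Against T cells, 2 members differed, where 0.946% of 10888 genes passed. Hilpda had changes of -0.49 in neutrophils and 0.13 in T cells (difference -0.59 ± 0.13, adjusted p = 0.0110, edgeR), and Bnip3l of -0.41 and 0.15 (difference -0.57 ± 0.13, adjusted p = 0.0135, edgeR). Without AT38 1, 0 members passed in either comparison by edgeR, with 14 at an unadjusted p under 0.05 against phagocytes and 4 against T cells. Without vehicle 1, 1 passed in each.

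**Figure D4:**
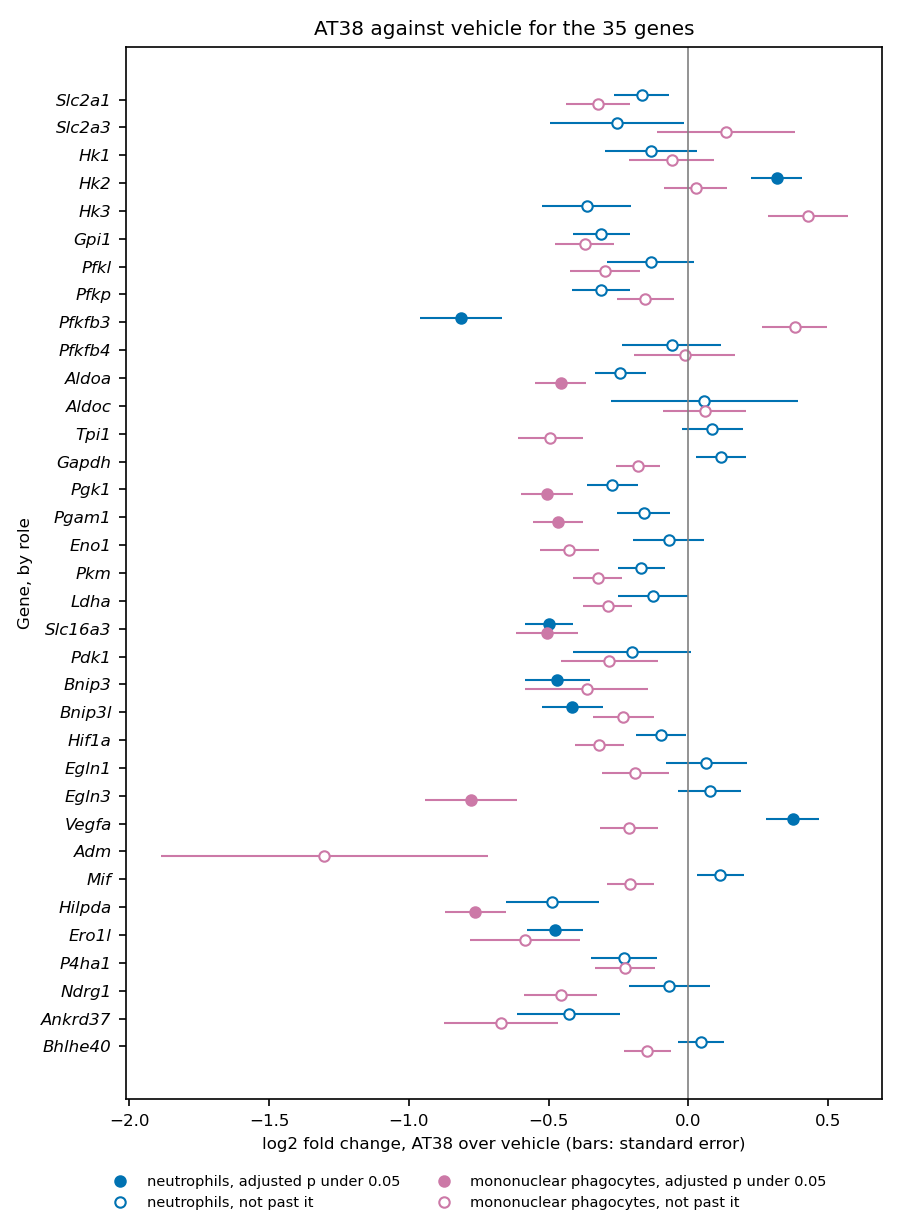
Log2 fold change (AT38 minus vehicle) with its standard error for each member in neutrophils and in mononuclear phagocytes. Pfkfb3 lies at -0.81 in neutrophils and 0.38 in phagocytes, while Slc16a3 lies at -0.50 and -0.51.

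In dendritic cells 0 of 34 members passed by edgeR or DESeq2, where 0.027% of 11098 genes did by edgeR. An unadjusted p under 0.05 by edgeR was found for 2 members and for 702 of all genes. The median change was -0.02. Egln3 stood at 28.6 and 20.8 CPM with vehicle and at 10.9 and 11.2 with AT38, a change of -1.09 ± 0.20 (adjusted p = 0.236, edgeR). In cluster 22 of the dendritic cells Egln3 passed at -1.26 ± 0.27 (adjusted p = 0.0180, edgeR), where 0.711% of genes did, and in cluster 16 Eno1 passed at -0.76 ± 0.14 (adjusted p = 0.0471, edgeR), where 0.217% did. Each was the 1 call of its cluster, among 34 members in cluster 22 and 30 in cluster 16. In clusters 19 and 25, 0 of 33 members passed by edgeR, with 1 in each at an unadjusted p under 0.05, and no other gene passed. Hif1a stood at 362 and 359 CPM with vehicle and 295 and 283 with AT38 (adjusted p = 0.727, edgeR), also without overlap. Among the 34 members, 15 did not overlap in CPM, 12 of them lower with AT38. The share of all dendritic cell genes without overlap is not given here. Aldoc had a change of 0.41, Slc2a1 of -0.30, Hk1 of -0.26, Vegfa of 0.18, Ldha of 0.08, Hilpda of 0.08 and Pgk1 of -0.02. Summed neutrophil markers in this class were 1796 and 1595 CPM with vehicle and 1149 and 1025 with AT38 (7 of 10 lower in both AT38 libraries). B cell markers were at 63.6 and 39.4 CPM against 29.1 and 17.3 (5 of 8 lower), T cell markers at 835 and 793 against 763 and 402 (5 of 8 lower) and fibroblast markers at 3.62 and 2.36 against 1.45 and 1.23 (2 of 7 lower). Their part in these values was not tested.

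In T cells 0 of 33 members passed by edgeR or DESeq2, where 0.0878% of 10249 genes did by edgeR. An unadjusted p under 0.05 by edgeR was found for 666 of all genes and for 1 member. That member was Hif1a, at 732 and 656 CPM with vehicle and at 592 and 539 with AT38, a change of -0.27 ± 0.08 (adjusted p = 0.399, edgeR). Its groups did not overlap. Egln1 (0.18), Bnip3l (0.15) and Gapdh (0.13) were above 0 and Pfkfb3 (-0.27) below, each without overlap. Among the 33 members, 9 did not overlap in CPM, 5 of them lower with AT38. The share of all T cell genes without overlap is not given here. Slc2a1 (-0.07), Ldha (0.02), Pgk1 (-0.09), Vegfa (-0.39) and Hilpda (0.13) overlapped. In simulated T cell counts of 10249 genes the test recovered 42% of genes changed 1.5-fold and 77% of those changed 2-fold, so changes under 1.5-fold were often not detectable.

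In B cells 0 of 29 members passed by edgeR or DESeq2, where 0.128% of 7798 genes did by edgeR. Of the 29 values 22 lay above 0, with a median of 0.24, where 48.7% of all genes lay below 0. An unadjusted p under 0.05 by edgeR was found for 7 of these members and for 595 of all 7798 genes. With doublets kept, 13 of 32 members lay below 0. Eno1 stood at 74.8 and 88.5 CPM with vehicle and at 114.9 and 120 with AT38, a change of 0.58 ± 0.17 (adjusted p = 0.252, edgeR). Hilpda stood at 30.1 and 36.7 CPM against 49.4 and 57.0, a change of 0.70 ± 0.23 (adjusted p = 0.345, edgeR). Both were higher in each AT38 library than in either vehicle library. Among the 29 members, 11 did not overlap in CPM, 2 of them lower with AT38. The share of all B cell genes without overlap is not given here. Gapdh (0.40), Mif (0.47), Slc2a1 (0.35), Ldha (0.24), Vegfa (0.30), Pgk1 (0.10) and Hif1a (-0.01) followed, and Slc2a3 had the lowest value at -1.07. In NK cells 0 of 27 members passed by edgeR or DESeq2, where 0.0905% of 6631 genes did by edgeR. An unadjusted p under 0.05 by edgeR was found for 403 of all genes and for 2 members. These were Slc2a3 (-0.66) and Hilpda, at 94.3 and 81.9 CPM with vehicle and 73.3 and 50.8 with AT38 (-0.49). Mif (0.28), Ero1l (-0.45), Pgam1 (-0.27), Hif1a (0.26), Slc2a1 (-0.26), Ldha (-0.10), Pgk1 (-0.13) and Vegfa (0.13) had larger p-values. In simulated counts of 7798 genes in B cells and 6631 in NK cells, 36% and 45% of genes changed 2-fold were recovered.

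Neighbouring pathways were read from lists set beside the members, with the 4.88% of all genes called in neutrophils and 1.93% in phagocytes as the background. In neutrophils the pentose phosphate pathway, the side branch that yields NADPH, had 3 of 7 tested genes lower and 0 higher. Its transaldolase Taldo1 stood at 680 and 602 CPM with vehicle and at 402 and 427 with AT38, a log2 change of -0.75 ± 0.09 (adjusted p = 3.35e-05, edgeR). Transketolase Tkt was at -0.74 (adjusted p = 0.000408) and Pgd, which makes NADPH, at -0.47 (0.00714). Of 19 genes for pyruvate entry and the citric acid cycle, 1 was higher, the malate dehydrogenase Mdh2 at 0.43 (adjusted p = 0.0138, edgeR), a share near that of all genes. Of 14 other hypoxia-induced genes tested, 3 were lower: Ier3 at -0.38, Mxi1 at -0.48 and the glycogen branching enzyme Gbe1 at -0.67. None of 4 other glycolysis genes and none of 4 other HIF regulators passed. In mononuclear phagocytes the pentose phosphate gene Pgd was lower at -0.57 (adjusted p = 0.0377, edgeR), and 0 of 10 other glycolysis genes, 19 citric acid cycle genes, 5 HIF regulators and 19 other hypoxia-induced genes passed. No gene of these lists passed in dendritic, B, T or NK cells.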

How the data were processed

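The authors deposited 1 matrix of unnormalized UMI counts for each library, and their processing notes name Cell Ranger 3.1.0 and mm10. The annotation release is not given in the sources used here. Every gene ID was matched to GENCODE M21 for positions. The members and gene lists were chosen with earlier results of these data known.

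A barcode counted as a cell with 200 genes or more, 500 UMIs or more and a mitochondrial share of 10% or less. Too few genes removed 876 of the 18001 barcodes and too high a mitochondrial share 3142, some of them both. Scrublet's own threshold called 9 doublets, so the highest scores were removed at 0.8% per 1000 barcodes, 683 in all, and 14172 cells remained. Of 14158 barcode sequences, 14 occurred in more than 1 library. Scanpy 1.11.5 scaled counts to 10000 per cell and used 2000 variable genes without the members, 30 components, 15 neighbours and Leiden resolution 1, which gave 28 clusters, with lymphoid clusters split again into 16. A cluster was named from fixed markers when at least 3 were detected in 10% of its cells, and naming thresholds were set with the clusters in view. The unnamed clusters were those with T and myeloid markers together, with proliferation genes, or with too few markers.

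UMIs were summed per library and class, with 2242888 to 3835065 per library in neutrophils and 2700523 to 5656980 in mononuclear phagocytes. They were tested with edgeR 4.0.16 in R 4.3.3 (quasi-likelihood, robust, TMM, filterByExpr, two-sided) where each library held 20 cells or more, with Benjamini-Hochberg adjustment over all genes of the class and a threshold of 0.05. A permutation of 2 against 2 libraries cannot go below p = 0.333. CPM is not scaled by TMM. Errors are SD over libraries for CPM and model SE for log2 changes. The text names each member past the threshold, 5 more with the smallest p per class, and Hif1a, Slc2a1, Ldha, Pgk1, Vegfa and Hilpda always. In simulated counts of the 8403 genes of neutrophils, 20% of 1.5-fold and 70% of 2-fold changes were recovered, and in the 10406 of phagocytes 31% and 70%. Each fold was given to 100 genes. False calls numbered 0 in neutrophils, 13 in phagocytes, 4 in dendritic cells, 2 in B, 12 in T and 2 in NK cells. Alternatives were DESeq2 1.42.0, library size scaling, no filter, a replicate block, each library left out, 20% mitochondrial UMIs, no doublet removal, resolution 0.5, members among the clustering genes and subsets of a class. The fits that drop or isolate clusters, add the T-marker cluster or fix the cluster weights were chosen after seeing the data. The second listed gene ID of Aldoa had 0 UMIs, and Eno1b, a near copy of Eno1, had 87 against 26213.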

Additional observations from a re-analysis of the deposited data

Results flagged for a closer look

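The AT38 effect differed between cell classes for 6 members, each by an interaction test (edgeR quasi-likelihood, Benjamini-Hochberg over all genes). In neutrophils minus mononuclear phagocytes the difference of log2 changes was -1.19 for Pfkfb3, -0.76 for Hk3, 0.60 for Vegfa and 0.60 for Tpi1. In neutrophils minus T cells it was -0.59 for Hilpda and -0.57 for Bnip3l. Pfkfb3 was lower in both AT38 libraries in neutrophils and higher in both in phagocytes, and Vegfa the reverse. The Hk3 libraries of the groups overlapped in neutrophils. Vehicle 1, which held 113 of the neutrophils of cluster 7, stood apart from the other libraries for Hilpda in neutrophils at 450 CPM, and the part of that cluster in the Hilpda difference was not tested.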

How the results depend on the processing

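Counts of called members moved as follows. In neutrophils (7) there were 4 with DESeq2 and 4 with cluster 7 left out, and leaving out 1 library gave 1 to 8. In mononuclear phagocytes (6) there were 14 with no low-count filter, 2 at Leiden resolution 0.5, 2 with the members among the clustering genes, 1 with the T-marker cluster added and 0 with monocyte-like clusters only (8 at an unadjusted p under 0.05, edgeR), and leaving out 1 library gave 0 to 14. In dendritic cells (0) no filter gave 1 and leave-one-out 0 to 3. B, T and NK cells (0 each) gave 0 to 1. Differences between neutrophils and mononuclear phagocytes (4) ranged from 0 to 4 and those between neutrophils and T cells (2) from 0 to 3, with 1 at library size only. The cause was not tested.

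With the replicate number as a block, 15 members passed in mononuclear phagocytes and 7 in neutrophils, where Hk2 no longer passed (adjusted p = 0.0517, edgeR) and Hilpda did (0.00325). No label says that a number marks a shared batch or day, and the correlation over genes of same-numbered libraries ran from -0.04 in NK cells to 0.14 in dendritic and 0.21 in B cells, so whether the numbers pair the libraries was not settled. Calls over all genes under the block were 520 in neutrophils, 547 in mononuclear phagocytes, 9 in dendritic, 66 in B, 68 in T and 14 in NK cells.

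Calls over all genes in neutrophils (410) were 216 with DESeq2 and 117 to 382 leaving out 1 library. In mononuclear phagocytes (201) they were 475 with no filter, 119 at resolution 0.5, 122 with members clustered, 46 with the T-marker cluster, 22 in monocytes and 70 to 619 leaving out 1 library. Dendritic cells (3) gave 20 with DESeq2, 169 with no filter, 0 at 20% mitochondrial UMIs and 2 to 491 leaving out 1 library. B cells (10) gave 65 with no filter, 5 at 20% mitochondrial UMIs, 19 with doublets kept, and 30 to 112 leaving out 1 library. T cells (9) gave 55 with no filter, 14 at 20%, 31 in CD4 and 2 in CD8 T cells, and 9 to 89 leaving out 1 library. NK cells (6) gave 1 with DESeq2, 12 with no filter, 3 at 20% and 5 to 24 leaving out 1 library.

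Some log2 changes reversed sign, none past the threshold. Leaving out 1 library gave a range across 0 for 12 named values: in neutrophils -0.34 to 0.10 for Ldha; in dendritic cells -0.027 to 0.20 for Ldha, -0.059 to 0.023 for Pgk1 and -0.089 to 0.26 for Hilpda; in B cells -0.29 to 0.18 for Hif1a, -0.0091 to 0.23 for Pgk1 and -0.056 to 0.71 for Vegfa. In T cells it was -0.25 to 0.10 for Slc2a1, -0.014 to 0.067 for Ldha and -0.23 to 0.053 for Pgk1, and in NK cells -0.13 to 0.60 for Hif1a and -0.0089 to 0.28 for Vegfa. With library size only, Hif1a in neutrophils became 0.0217 and Ldha in T cells -0.0013. Pgk1 in B cells became -0.028 with doublets kept, Vegfa in monocytes 0.17, Pfkfb3 in CD4 T cells 0.026 and Vegfa in CD8 T cells 0.00081.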

Other observations

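Cycling T and NK cells stayed outside the tested classes because proliferation genes led their clusters, which held 3.57% to 4.58% of the kept cells of a library. Only 1 of these clusters is described here, with 51 to 78 cells and 1.67% to 2.07% of the kept cells per library. In that cluster the glycolysis enzymes did not all lie on 1 side of T cells. In all 4 libraries Gpi1, Tpi1, Gapdh, Pgk1, Pgam1, Eno1, Pkm and Ldha were above. Tpi1 stood at 373 ± 59.4 CPM (SD, n = 4) against 176 ± 10.9, Gapdh at 1428 ± 152 against 941 ± 40.5, and Ldha at 742 ± 105 against 461 ± 12.8. Pgk1 stood at 569 ± 91.8 CPM against 366 ± 40.3, and Pkm at 597 ± 57.0 against 428 ± 18.7. Aldoc, at 6.78 ± 3.19 CPM against 13.6 ± 0.996, and Pfkfb3, at 21.02 ± 1.96 against 23.2 ± 2.91, were below in all 4, and Pfkp averaged 212 ± 26.2 against 226 ± 15.7. Mif, at 808 ± 114 CPM against 435 ± 21.7, was higher in the same way, while Hif1a (416 ± 51.4 against 630 ± 83.5) and Hilpda (113 ± 17.2 against 138 ± 10.2) were not above. The cycling cells had a median of 12954 to 19883 UMIs per cell and the T cells 3767 to 4841, and the part of that difference was not tested. Gamma-delta T cells, 18 to 31 per library, had 496 ± 119 CPM of Pfkp and 166 ± 31.1 of Hk2, where CD8 T cells had 221 ± 24.2 and 44.3 ± 11.1, without overlap for either gene.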
